A study of Homo sapiens with 8 samples.

Results

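The 49 genes described here encode proteins of homologous recombination, the Fanconi anaemia pathway, mismatch repair, the DNA damage checkpoint and the sealing of broken DNA ends. They were taken by symbol from a fixed list, and all 49 were found among the 23228 genes listed and among the 13498 tested. By role they comprised 13 recombination mediators, 8 genes of end resection with its helicases, 10 Fanconi genes, 3 mismatch repair genes, 7 checkpoint genes and 8 genes of break sealing and end joining. Their messenger RNA was measured by RNA sequencing in ES2, a human ovarian cancer line, in 4 groups of 2 libraries. Control cells and cells with knockout of KDM1A, a histone H3 lysine 4 demethylase, were each kept for 48 h with vehicle or with 5 µM LY500307, which activates oestrogen receptor beta. The study addressed how KDM1A loss bears on oestrogen receptor beta signalling in ovarian cancer. The sources used here do not say what the control cells carry in place of the edit, nor whether 1 clone or a mixed population was taken as the knockout.

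Homologous recombination repairs a chromosome break by copying an intact sister chromatid, and for this the broken ends are first trimmed to expose a strand that a recombinase then pairs with its partner. The Fanconi pathway detects links between the strands of DNA at stalled replication forks and hands the lesion to recombination, while mismatch repair removes copying errors just behind the fork. Many of these genes are transcribed mostly in cycling cells around S phase, and defects in recombination underlie a large share of ovarian cancers and their sensitivity to inhibitors of PARP enzymes.

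Library totals lay between 24348937 and 30131097 gene counts, of which the 49 genes took 0.472% to 0.537%. The KDM1A transcript stood at 220.0 and 219 CPM (counts scaled by TMM to a common library size) in the 2 vehicle-treated control libraries and at 238 and 241 with LY500307. In knockout cells it stood at 75.6 and 77.8 with vehicle and at 72.0 and 71.6 with LY500307, lower in 4 of 4 libraries labelled knockout. Of the ovarian and epithelial markers, the keratins KRT7 and KRT18 were at 257 and 327 CPM on average in vehicle-treated control cells. In the same group PAX8 and WT1 were at 1.98 and 1.75 CPM. The ovarian cancer antigen MUC16 was at 0.0213 CPM and the adhesion molecules EPCAM and CDH1 were at 1.49 and 0.874 CPM. The leucocyte antigen PTPRC was at most at a mean of 0.0711 CPM and the endothelial PECAM1 at most at 0.141 CPM in a group, while other markers of such lists were high in vehicle-treated control cells, with the collagen COL1A1 at 1222, the cadherin CDH5 at 102 and the lysosomal CD68 at 98.2 CPM. No source describes the 2 libraries of a group as separate cultures, and the p-values below measure the spread between libraries only, which may be technical.

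Promoter sequences from RefSeq (GRCh38.p14, 250 bases before to 50 after the start) were at hand for 42 of the 49 genes, and those of RAD54B, NBN, WRN, PRKDC, DNA2, FANCI and XRCC5 were not used here. They were searched on both strands for E2F motifs (TTTCCCGC, TTTGGCGC, TTTCGCGC or TTTGCCGC), the letters bound by the transcription factors that switch on S phase genes. An E2F motif was present in 12 of the 42 promoters (28.6%), against 555 of 10285 promoters of tested genes (5.4%) and 1164 of 35116 in RefSeq (3.31%). The genes with a motif were XRCC2, EXO1, FANCA, FANCC, FANCD2, MSH3, MSH6, PMS2, CLSPN, TOPBP1, XRCC6 and LIG1. By comparison the CCAAT box (CCAAT) was present in 42.9% of the 42 promoters, 37.1% of those of tested genes and 34.6% of those in RefSeq. The CHR element (TTTGAA or TTCGAA) was present in 11.9%, 11.4% and 16.4%, and the palindromic NRF1 motif in 11.9%, 11.7% and 5.78%, so that for both the share lay close to that of tested genes. No match of 1 motif overlapped a match of another in these promoters, while the 2 E2F matches of MSH3 overlapped each other. These are matches of letters and show no binding.

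Stretches from 180 bases before to 20 after the start are printed for 7 genes, 5′ to 3′ on the strand of the gene, with E2F motifs in capitals. The first 5 are those of smallest p with a motif inside that stretch among the genes that LY500307 lowered in control cells, as described below, and the other two are the largest fall and the rise of smallest p. XRCC2 and XRCC6 had a smaller p than LIG1, but their motifs begin 21 and 42 bases after the start and so lie outside. MSH6 lies at chr2:47782965-47783164, plus strand, CLSPN at chr1:35769959-35770158, minus strand, TOPBP1 at chr3:133661922-133662121, minus strand, and LIG1 at chr19:48170325-48170524, minus strand. FANCD2 lies at chr3:10026257-10026456, plus strand, RAD54L at chr1:46247508-46247707, plus strand, and RAD50 at chr5:132556797-132556996, plus strand.
MSH6: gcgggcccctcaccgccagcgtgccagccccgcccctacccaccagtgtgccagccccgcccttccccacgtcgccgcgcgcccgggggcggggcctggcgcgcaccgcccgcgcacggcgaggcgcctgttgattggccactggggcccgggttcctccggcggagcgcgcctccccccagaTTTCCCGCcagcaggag
CLSPN: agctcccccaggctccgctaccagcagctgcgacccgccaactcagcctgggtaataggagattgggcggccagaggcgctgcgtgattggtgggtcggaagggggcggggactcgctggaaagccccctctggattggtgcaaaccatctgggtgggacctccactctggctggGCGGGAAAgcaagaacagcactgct
TOPBP1: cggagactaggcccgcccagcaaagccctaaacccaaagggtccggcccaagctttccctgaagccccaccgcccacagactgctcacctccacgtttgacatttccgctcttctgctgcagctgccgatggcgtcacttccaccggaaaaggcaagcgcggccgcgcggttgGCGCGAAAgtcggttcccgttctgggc
LIG1: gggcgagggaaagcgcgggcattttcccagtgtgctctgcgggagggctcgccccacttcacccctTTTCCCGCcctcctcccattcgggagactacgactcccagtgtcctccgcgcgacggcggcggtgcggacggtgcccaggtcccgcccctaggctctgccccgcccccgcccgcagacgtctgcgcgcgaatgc
FANCD2: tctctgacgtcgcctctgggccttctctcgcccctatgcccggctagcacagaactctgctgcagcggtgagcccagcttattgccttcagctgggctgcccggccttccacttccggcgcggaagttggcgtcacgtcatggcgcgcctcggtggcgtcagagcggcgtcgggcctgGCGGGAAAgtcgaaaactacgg
RAD54L: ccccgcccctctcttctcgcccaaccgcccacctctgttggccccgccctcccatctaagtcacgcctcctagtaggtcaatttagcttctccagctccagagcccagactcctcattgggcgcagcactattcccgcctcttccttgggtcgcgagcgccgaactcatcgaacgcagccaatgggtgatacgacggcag
RAD50: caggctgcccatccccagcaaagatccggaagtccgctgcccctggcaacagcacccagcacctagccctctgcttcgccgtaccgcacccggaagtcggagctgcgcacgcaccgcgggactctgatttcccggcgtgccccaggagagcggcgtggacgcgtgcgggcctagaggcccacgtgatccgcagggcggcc
In MSH6, CLSPN, TOPBP1 and FANCD2 the motif began within 7 bases of the start, and in LIG1 it began 114 bases before it. The stretches of RAD54L and RAD50 held no match to these letters.

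Levels were compared between genes per kilobase of the canonical GENCODE transcript, as the mean CPM over the 8 libraries. The Ku subunits XRCC5 and XRCC6, which cap broken ends for end joining, stood highest at 324 and 224 CPM per kilobase, followed by the nick sensor PARP1 at 98.8, the mismatch sensor MSH6 at 48.5 and PRKDC, the catalytic subunit of the DNA-dependent protein kinase, at 38.1. At the other end were the damage kinase ATM at 3.85, the Fanconi translocase FANCM at 3.25, the core complex gene FANCB at 2.95 and the recombination mediator RAD51D at 1.20 CPM per kilobase. The canonical transcript of RAD51D is 9966 bases long, so its place at the bottom rests on that length. XRCC5 read 1038 and 1024 CPM in vehicle-treated and 959.7 and 931 CPM in LY500307-treated control libraries, and 1229.8 and 1214 CPM, then 1201 and 1156 CPM in those of knockout cells. RAD51D read 16.5 and 13.8 CPM, 11.6 and 11.1 CPM, 11.5 and 12.5 CPM and 8.70 and 9.88 CPM in the same order of groups. The highest and lowest gene of each role differed more in level than any gene differed between groups, as the plot of levels shows. Other genes of a role lay closer, such as BRCA1 and RAD51C at 14.3 and 17.1 CPM per kilobase. PRKDC ran from 57.8 CPM per kilobase in vehicle-treated control cells to 22.0 in LY500307-treated knockout cells.

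**Figure D1:**
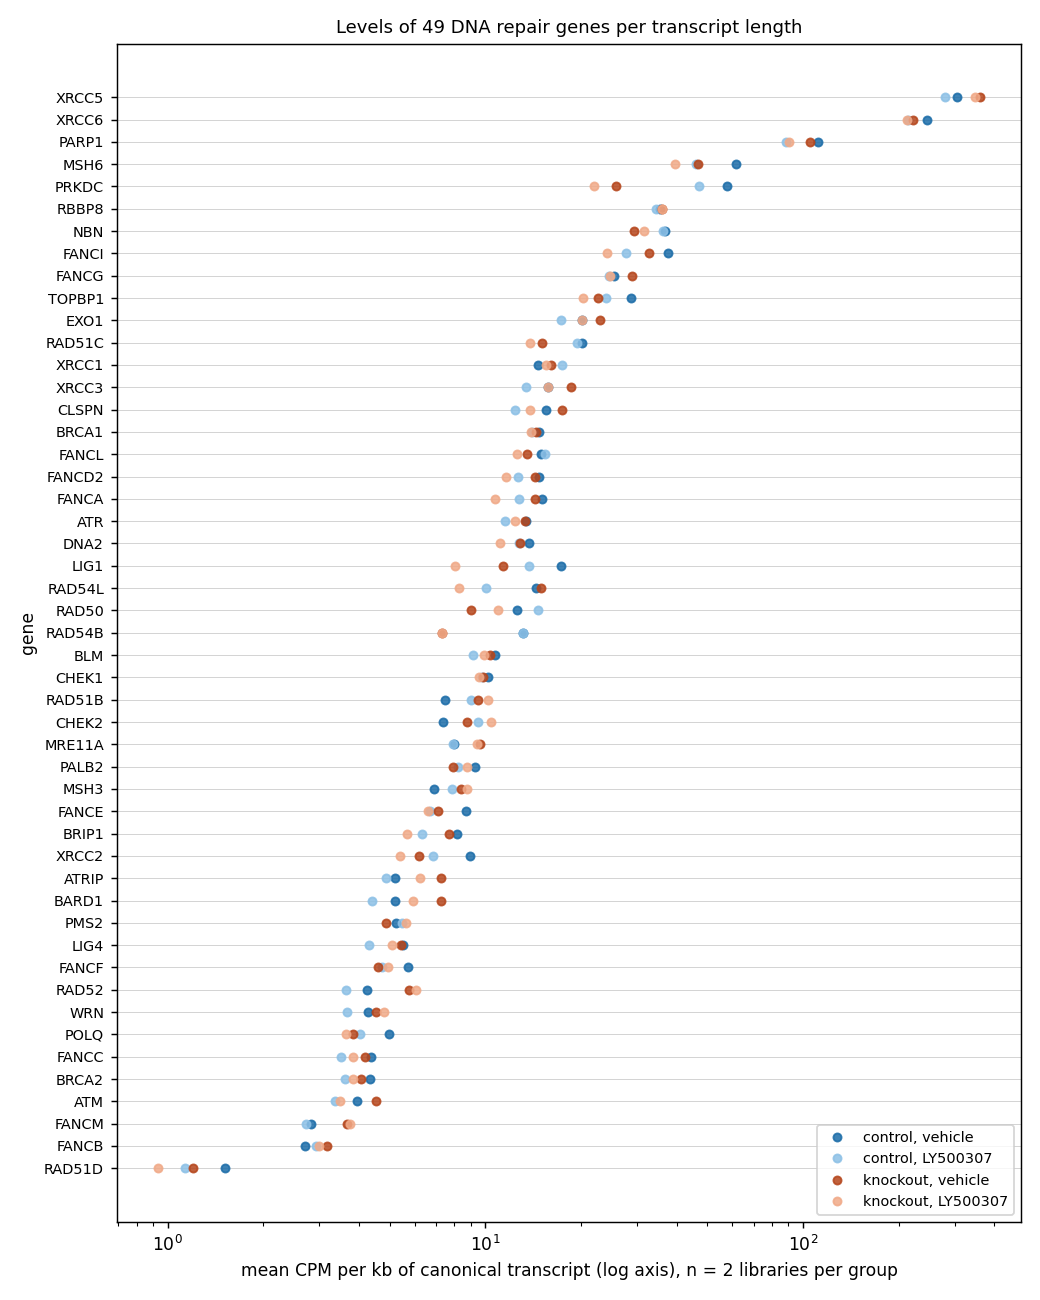
Mean CPM per kilobase of the canonical transcript for each of the 49 genes (log axis), ordered by level, with 1 point for each of the 4 groups (colour, n = 2 libraries). XRCC5 and XRCC6 stand highest at 324 and 224 on average and RAD51D lowest at 1.20. The points of a gene lie close together beside the distance between the highest and lowest genes.

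LY500307 lowered repair transcripts in control cells by modest amounts. In quasi-likelihood tests by edgeR, adjusted by Benjamini-Hochberg over all 13498 genes at 0.05, 28 of the 49 genes fell and 3 rose, against a background of 14.0% of all genes lower and 12.3% higher. The median log2 fold change was -0.22 over the 49 genes and 0.0052 over all genes tested. None of the 49 passed with a change of at least 1.5-fold, which 4.22% of all genes did. Both LY500307 libraries lay below both vehicle libraries for 33 of the 49 genes (background 31.0%) and above them for 6 (background 32.1%).

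Among the genes with the smallest p, MSH6 (chr2:47922669-48037202 on hg19), which recognises base mismatches together with its partner, read 259 and 265 CPM with vehicle and 195 and 199 CPM with LY500307. FANCI (chr15:89787176-89860492), whose protein clamps DNA with FANCD2 once both carry ubiquitin, read 179.8 and 176 CPM, then 132 and 131 CPM. RAD54L (chr1:46712133-46744152), a motor protein that drives strand pairing, read 45.4 and 43.5 CPM, then 30.7 and 31.2 CPM. In each of these genes both treated libraries lay below both vehicle libraries with a wide gap. On the log2 scale edgeR gave -0.41 (SE 0.0458, adjusted p = 4.09e-08) for MSH6, -0.44 (SE 0.0504, adjusted p = 7.73e-08) for FANCI and -0.52 (SE 0.0775, adjusted p = 5.61e-06) for RAD54L, the last being the largest fall of the 49.

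In the group of break sealing and end joining, 7 of 8 genes fell and 1 rose, beside 14.0% of all genes lower and 12.3% higher. PARP1 (chr1:226547911-226595855), the target of PARP inhibitors, read 442 and 443 CPM with vehicle and 351 and 351 CPM with LY500307. PRKDC (chr8:48685672-48872738) read 805 and 750.1 CPM, then 629.9 and 633 CPM, and LIG1 (chr19:48618702-48673860), the ligase that joins Okazaki fragments, read 55.5 and 53.1 CPM, then 41.2 and 44.6 CPM. The treated libraries lay below the vehicle libraries in all of these genes. Fitted by edgeR, the changes on the log2 scale were -0.34 (SE 0.0411, adjusted p = 2.12e-07) for PARP1, -0.30 (SE 0.0414, adjusted p = 1.62e-06) for PRKDC and -0.34 (SE 0.0734, adjusted p = 0.000756) for LIG1. The other falls were those of the Ku genes XRCC6 (-0.20) and XRCC5 (-0.13), the end joining ligase LIG4 (-0.35) and the polymerase of microhomology-mediated joining POLQ (-0.31).

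In the checkpoint group 4 of 7 genes fell and 1 rose, beside 14.0% of all genes lower and 12.3% higher. CLSPN (chr1:36185819-36235579), the adaptor through which the kinase ATR activates CHEK1, read 135 and 129 CPM with vehicle and 108 and 104 CPM with LY500307, so the treated libraries were the lower ones (log2 fold change -0.32, SE 0.0520, adjusted p = 2.10e-05 by edgeR). The activator of ATR TOPBP1 (-0.26), ATR itself (-0.22) and ATM (-0.23) fell as well. CHEK1, which relays the signal of ATR, stood at -0.07 and the partner of ATR, ATRIP, at -0.09, and neither passed.

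Of the 13 recombination mediators 7 fell and none rose, beside 14.0% of all genes lower and 12.3% higher. Besides RAD54L these were the helicase BRIP1 (-0.37), the recombinase paralogs XRCC2 (-0.38), XRCC3 (-0.23) and RAD51D (-0.42), the recombinase loader BRCA2 (-0.26) and BARD1 (-0.24), which forms a ubiquitin ligase with BRCA1. BRCA1 stood at -0.07 and did not pass (edgeR adjusted p = 0.410), and neither did PALB2, the bridge between BRCA1 and BRCA2, at -0.18 (adjusted p = 0.0839, or 0.0463 with the replicate block). RAD51C stood at -0.05, the annealing factor RAD52 at -0.21, RAD51B at 0.27 and RAD54B close to 0, all without passing.

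Of the 10 Fanconi genes 6 fell and none rose, beside 14.0% of all genes lower and 12.3% higher. After FANCI these were the core complex genes FANCE (-0.38), FANCC (-0.32), FANCF (-0.27) and FANCA (-0.24) and the clamp partner FANCD2 (-0.22). FANCG, FANCB, FANCL, the ubiquitin ligase of the pathway, and FANCM lay between -0.06 and 0.12 and did not pass. In mismatch repair, MSH6 fell while its alternative partner MSH3 (0.19) and the endonuclease subunit PMS2 (0.06) did not pass. Of the 8 resection genes 3 fell and 1 rose, with the exonuclease EXO1 (-0.22) and the helicases BLM (-0.23) and WRN (-0.22) lower and RAD50 higher. MRE11A, NBN, RBBP8 and DNA2, which start or extend the trimming of ends, lay at -0.11 or nearer to 0 and did not pass.

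The genes that rose with LY500307 in control cells were RAD50, CHEK2 and XRCC1. RAD50 (chr5:131891711-131982041), the arm of the complex that tethers broken ends, read 108 and 99.6 CPM with vehicle and 122 and 121 CPM with LY500307. CHEK2, the kinase downstream of ATM, read 13.3 and 14.0 CPM, then 16.8 and 18.3 CPM, and XRCC1, the scaffold that gathers enzymes at nicks, read 28.6 and 31.7 CPM, then 35.5 and 36.0 CPM. The treated libraries were the higher ones in each, and CHEK2 and XRCC1 were chosen for their library values after these were seen. The edgeR estimates on the log2 scale were 0.23 (SE 0.0592, adjusted p = 0.00452) for RAD50, 0.37 (SE 0.0983, adjusted p = 0.00565) for CHEK2 and 0.25 (SE 0.0773, adjusted p = 0.0174) for XRCC1. CHEK2 has near-identical copies elsewhere in the genome, as have PMS2, FANCD2 and XRCC6, so their counts are uncertain.

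The number of falls depended on scaling and on which libraries were used. With library totals in place of TMM, 17 genes were lower and 5 higher, with MSH3 (0.26) and RAD51B (0.34) added to the rises, against 7.49% of all genes lower and 21.0% higher, and the median was -0.15 beside 0.08 over all genes. Leaving out replicate 1 of vehicle-treated control cells gave 17 lower and 1 higher (9.46% of all genes lower), and leaving out replicate 2 of LY500307-treated control cells also gave 17 lower and 1 higher (9.00% lower). Of the 31 calls, 12 passed without each of the 8 libraries in turn, namely those of MSH6, FANCI, PARP1, PRKDC, RAD54L, CLSPN, BRIP1, TOPBP1, XRCC2, XRCC6, LIG1 and POLQ, and these also passed with library totals. In DESeq2 the calls of BARD1, FANCC, FANCF and WRN were lost (DESeq2 adjusted p from 0.0596 to 0.122).

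Without replicate 1 of vehicle-treated control cells 13 calls were lost (edgeR adjusted p from 0.0591 to 0.332), those of ATM, ATR, BARD1, BLM, BRCA2, CHEK2, EXO1, FANCD2, FANCF, RAD51D, WRN, XRCC1 and XRCC5. Without replicate 2 of that group 8 were lost (0.0533 to 0.208), those of BARD1, FANCA, FANCC, FANCE, FANCF, RAD50, XRCC3 and XRCC5. Without replicate 1 of LY500307-treated control cells the 8 lost were ATM, FANCA, FANCC, FANCE, FANCF, WRN, XRCC1 and XRCC3 (edgeR adjusted p from 0.0550 to 0.212). Without replicate 2 of that group 13 were lost (0.0514 to 0.318), those of ATM, BARD1, BLM, BRCA2, CHEK2, EXO1, FANCF, LIG4, RAD51D, WRN, XRCC1, XRCC3 and XRCC5.

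An E2F motif was present in 10 of the 24 promoters of genes that fell in control cells (41.7%) and in 2 of the other 18 (11.1%), those of MSH3 and PMS2. Of the 10, the calls of EXO1, FANCA, FANCC and FANCD2 were lost with library totals (edgeR adjusted p from 0.0577 to 0.0691). CCAAT boxes were present in 41.7% of the promoters of genes that fell and in 44.4% of the others. No test was run on these shares.

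**Figure D2:**
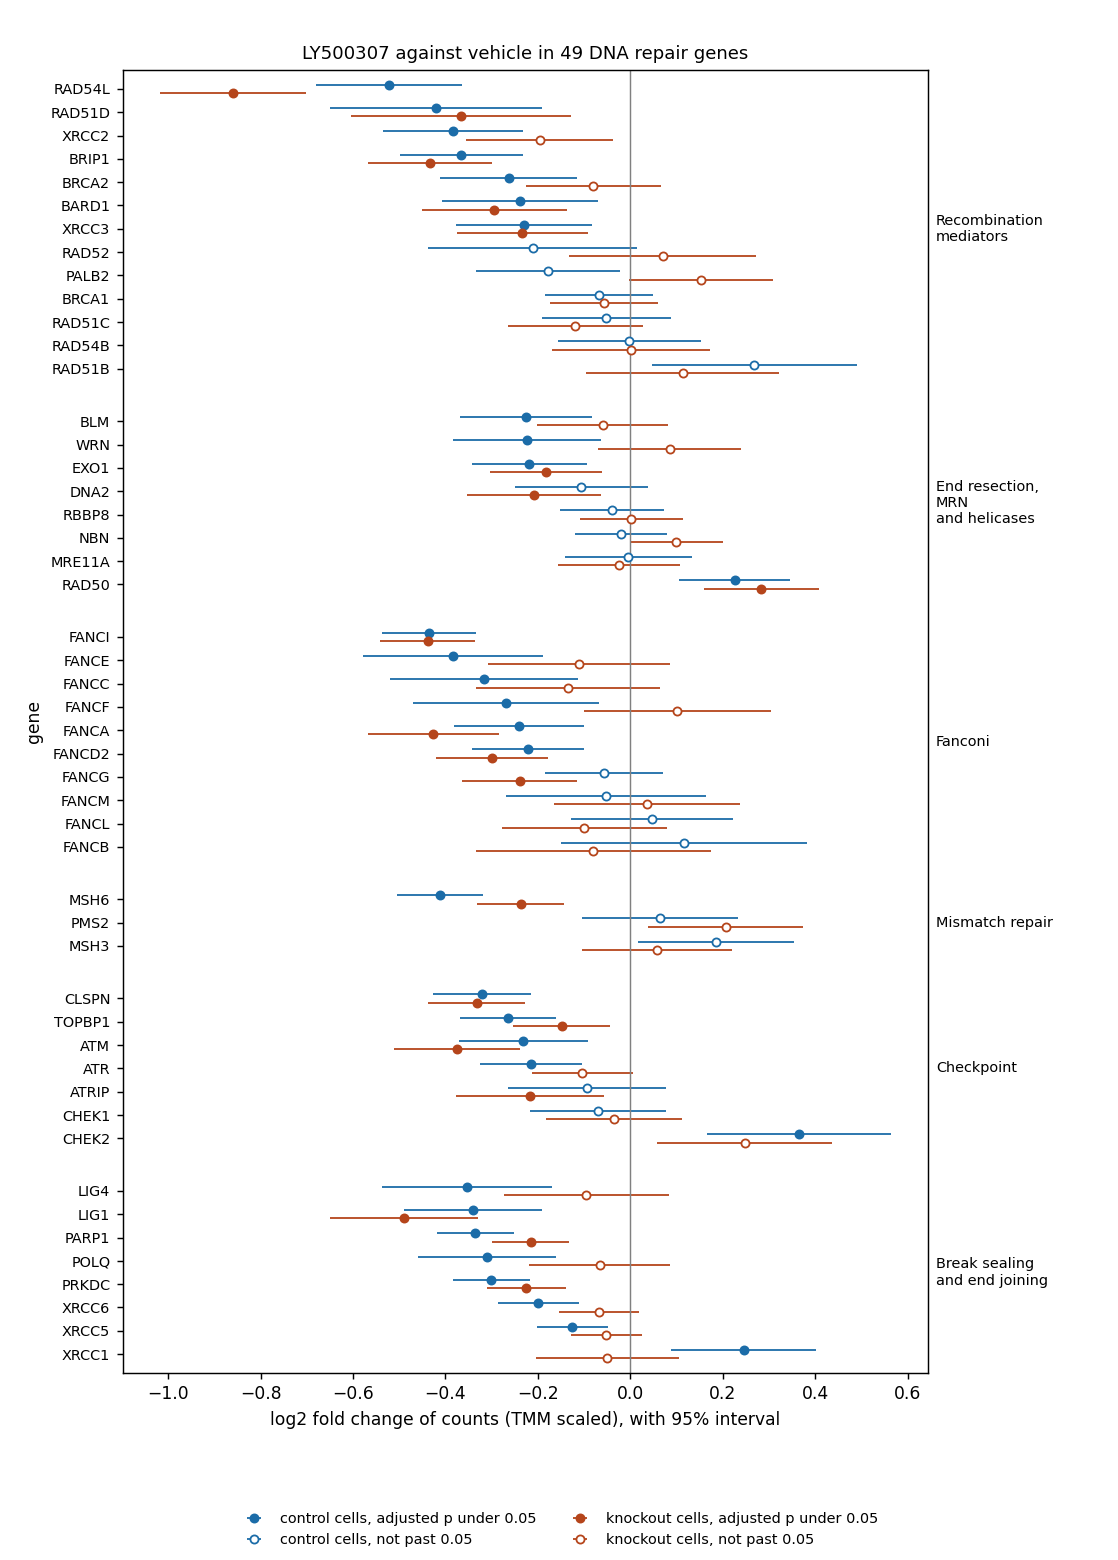
Log2 fold change (x axis) of LY500307 against vehicle for each of the 49 genes by role, in control cells and in knockout cells (colour), with 95% intervals as bars and filled points where the edgeR adjusted p was under 0.05. Most points lie left of 0 in both kinds of cell, with RAD54L lowest at -0.52 in control and -0.86 in knockout cells, and RAD50 lies right of 0 in both at 0.23 and 0.28.

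In knockout cells LY500307 lowered 19 of the 49 genes and raised 1 by the same edgeR test, against a background of 11.3% of all genes lower and 9.16% higher. The median log2 fold change was -0.10 over the 49 genes and 0.010 over all genes. Both treated libraries lay below both vehicle libraries for 27 of the 49 genes (background 27.8%) and above them for 7 (background 30.6%). RAD54L was the one gene of the 49 to pass with a change of at least 1.5-fold, which 2.20% of all genes did. It read 45.8 and 46.4 CPM with vehicle and 23.2 and 27.6 CPM with LY500307, the lowest levels of this gene in any group (log2 fold change -0.86, SE 0.0782, adjusted p = 5.97e-10 by edgeR).

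FANCI read 151 and 158 CPM with vehicle and 110.2 and 118 CPM with LY500307 in knockout cells. BRIP1 (chr17:59756500-59940920), which unwinds DNA in complex with BRCA1, read 65.0 and 60.8 CPM, then 44.8 and 48.1 CPM, beside 67.6 and 65.6 CPM, then 53.6 and 49.8 CPM in control cells. CLSPN read 151 and 147 CPM, then 120.5 and 115 CPM. In these genes the treated libraries were the lower ones in both kinds of cell. By edgeR the log2 fold changes in knockout cells were -0.44 (SE 0.0508, adjusted p = 8.65e-08) for FANCI, -0.43 (SE 0.0661, adjusted p = 9.97e-06) for BRIP1 and -0.33 (SE 0.0512, adjusted p = 1.19e-05) for CLSPN.

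LIG1 read 36.3 and 34.5 CPM with vehicle and 23.4 and 27.0 CPM with LY500307 in knockout cells. FANCA, which joins the core complex that attaches ubiquitin to FANCI and FANCD2, read 72.1 and 84.6 CPM, then 56.3 and 60.4 CPM, beside 77.4 and 87.3 CPM, then 68.2 and 71.1 CPM in control cells. The vehicle libraries of FANCA stood apart from each other by more than the treated ones did, in both kinds of cell. By edgeR the log2 fold changes in knockout cells were -0.49 (SE 0.0792, adjusted p = 2.56e-05) for LIG1 and -0.43 (SE 0.0697, adjusted p = 2.90e-05) for FANCA.

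By role, 5 of 13 recombination mediators fell in knockout cells, with BARD1 (-0.29), RAD51D (-0.37) and XRCC3 (-0.23) beside RAD54L and BRIP1. Over all genes 11.3% were lower and 9.16% higher. Of the 10 Fanconi genes 4 fell, with FANCD2 (-0.30) and FANCG (-0.24) beside FANCI and FANCA. Of the 8 resection genes DNA2 (-0.21) and EXO1 (-0.18) fell, and RAD50 rose from 78.0 and 71.2 to 95.1 and 86.3 CPM (log2 fold change 0.28, SE 0.0609, adjusted p = 0.000842 by edgeR). In the checkpoint group ATM (-0.38), ATRIP (-0.22) and TOPBP1 (-0.15) fell beside CLSPN. MSH6 changed by -0.24 in knockout cells, from 196 and 202 CPM to 168 and 170.2 CPM. PARP1 changed by -0.21, from 419 and 418 CPM to 359.8 and 361 CPM, and PRKDC by -0.22, from 346 and 346 CPM to 295 and 297 CPM. All of these passed as lower.

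In knockout cells 11 of the 20 calls passed without each of the 8 libraries in turn. These were RAD54L, FANCI, BRIP1, CLSPN, LIG1, FANCA, ATM, PRKDC, PARP1, MSH6 and FANCD2. Without replicate 2 of vehicle-treated knockout cells the calls of ATRIP, EXO1, FANCG, RAD50, RAD51D, TOPBP1 and XRCC3 were lost (edgeR adjusted p from 0.0553 to 0.209, the lowest that of RAD50), and without replicate 1 those of ATRIP, BARD1, DNA2, EXO1 and TOPBP1 (0.0736 to 0.477). Without replicate 1 of LY500307-treated knockout cells ATRIP, DNA2, RAD51D, TOPBP1 and XRCC3 were lost (0.0840 to 0.188), without replicate 2 ATRIP, DNA2 and EXO1 (0.0659 to 0.140), and without replicate 1 of LY500307-treated control cells ATRIP (0.0516). In DESeq2 the calls of ATRIP, DNA2 and RAD51D were lost (DESeq2 adjusted p from 0.0627 to 0.0931). With library totals the median of the 49 was -0.040, and 13 genes were lower and 5 higher, with CHEK2 (0.31), NBN (0.16), PALB2 (0.21) and PMS2 (0.27) added to the rise of RAD50, while 953 genes of the whole table were lower and 2288 higher. With the replicate number as a block 20 were lower and 3 higher, with CHEK2 (0.25, adjusted p = 0.0367), PMS2 (0.21, adjusted p = 0.0460) and XRCC2 (-0.20, adjusted p = 0.0398) added.

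The response to LY500307 in control and in knockout cells rests on separate libraries. Of the 28 genes that fell in control cells and the 19 that fell in knockout cells, 16 were in both lists, RAD50 was the gene that rose in both, and 0 passed in opposite directions. Over all genes, 898 were in both lists of 1885 and 1522 that fell, 575 in both lists of 1665 and 1237 that rose, and 28 passed in opposite directions. The log2 fold changes had the same sign in 38 of 49 genes (77.6%, against 70.8% of all genes), and across the 49 genes Pearson's r was 0.68 and Spearman's rho 0.69, against 0.39 and 0.53 across all genes. Genes are not independent replicates, so no p is given. Of the 14 genes lower in both with a promoter at hand, 7 held an E2F motif (50.0%): EXO1, FANCA, FANCD2, MSH6, CLSPN, TOPBP1 and LIG1.

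The difference between the responses was tested as the interaction of knockout and LY500307. By edgeR 0 of the 49 genes passed (background 1.62%), with 11 of 49 at an unadjusted p under 0.05, beside 14.4% of all genes. DESeq2 gave 0 with 7 at an unadjusted p under 0.05, beside 9.81% of all genes. The smallest adjusted p was that of RAD54L, whose fall was larger in knockout cells by a log2 difference of -0.34 (SE 0.110, adjusted p = 0.115), with a 95% interval of -0.56 to -0.11. PALB2, chosen after its values were seen, read 39.1 and 35.5 CPM, then 34.0 and 32.0 CPM in control cells but 32.8 and 30.5 CPM, then 34.9 and 35.4 CPM in knockout cells, so the treated libraries were the lower ones in the former and the higher ones in the latter (difference 0.33, SE 0.108, adjusted p = 0.118 by edgeR). With the replicate number as a block, 3 genes passed: RAD54L (-0.34, adjusted p = 0.0451), PALB2 (0.33, adjusted p = 0.0416) and MSH6 (0.17, adjusted p = 0.0481), while 643 genes of the whole table passed in place of 218. Without replicate 2 of LY500307-treated knockout cells RAD54L alone of the 49 passed (-0.48, edgeR adjusted p = 0.0191).

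Transcripts of the cell cycle moved alongside. With LY500307, 14.0% of all genes were lower and 12.3% higher in control cells, and 11.3% lower and 9.16% higher in knockout cells. Of 35 genes of DNA replication, 28 were lower and 0 higher with LY500307 in control cells (median log2 fold change -0.32), and 29 were lower and 0 higher in knockout cells (median -0.32). Their summed level was 6199.6 and 6225 CPM in vehicle-treated and 5002 and 5049 CPM in LY500307-treated control libraries, and 4802 and 4792 and then 3899.7 and 3912 CPM in those of knockout cells, with no overlap between groups. Of 26 genes of mitosis, 7 were lower and 3 higher in control cells (median -0.02) and 8 lower and 4 higher in knockout cells (median 0.03). Their summed level went from 7518 and 7327 to 7225 and 7092 CPM with LY500307 in control libraries. In knockout libraries it went from 6978 and 6793 to 6678 and 6556 CPM. Of smallest p in knockout cells were TOP2A (-0.62), CDK1 (-0.51), UBE2C (-0.53) and AURKA (0.38). In the interaction 3 of the 26 passed as lower, TOP2A, CDK1 and UBE2C, and 1 as higher, MKI67 (0.22). Of the 35 replication genes 1 passed as lower and 0 as higher there (background 1.62% of all genes in either direction). The part of these cell cycle genes in the fall of repair transcripts was not tested. Less RNA of a gene in each cell and fewer cells in S phase cannot be told apart in bulk samples. The ratio of alignments that were not unique to those that were also differed, at 49.6 and 50.5 per 100 in vehicle-treated and 46.6 and 46.6 in LY500307-treated control libraries and at 52.8 and 52.7 and then 50.5 and 48.9 in those of knockout cells, and its part was not tested. Fibroblast and mesothelial markers summed to 1262 to 1320 CPM in vehicle-treated and 1161 to 1220 CPM in LY500307-treated control libraries, mostly COL1A1. In those of knockout cells they summed to 237 to 241 and then 151 to 173 CPM. COL1A1 fell with LY500307 (-0.15 in control, -0.68 in knockout cells) while PDGFRA rose (0.38 and 0.56). Endothelial markers summed to 103 to 105 and then 83.1 to 88.6 CPM in control cells and to 32.9 and then 26.7 to 31.9 CPM in knockout cells, and haematopoietic markers to 97.0 to 100.4 and then 111 to 113 CPM in control cells and 63.7 to 64.4 and then 63.0 to 75.6 CPM in knockout cells. The part of these was not tested.

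**Figure D3:**
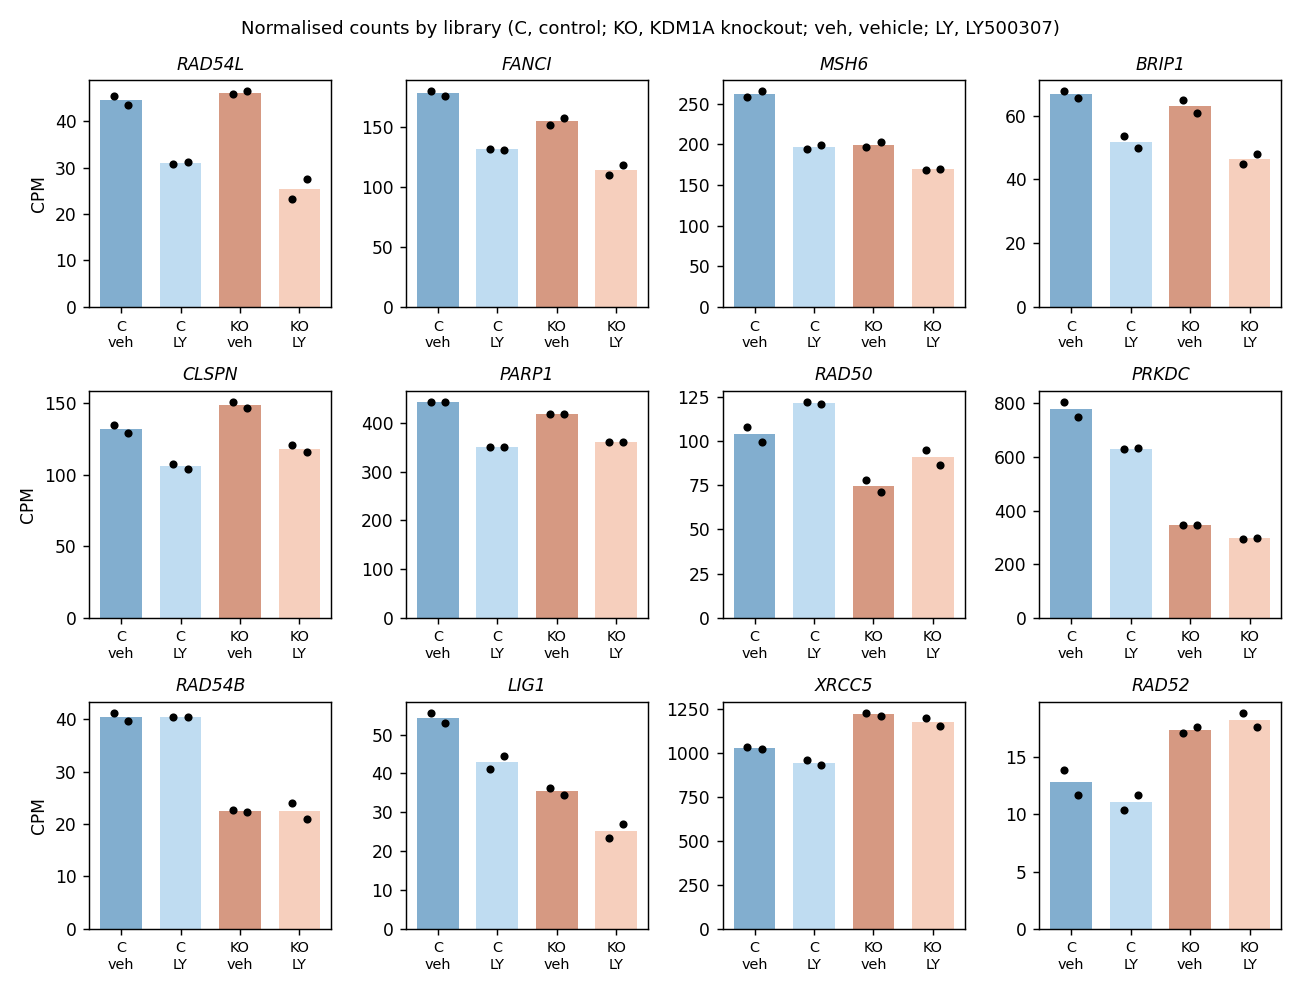
CPM of 12 of the genes in each of the 8 libraries, 1 panel per gene with its own axis from 0, with 1 point per library and the group mean as a bar, coloured by group. RAD54L, MSH6 and FANCI are lower in both libraries of each LY500307 group than in those of the matching vehicle group, while PRKDC and RAD54B are lower in all 4 knockout libraries.

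Repair genes differed in both directions between knockout and control cells, with vehicle in shares close to those of all genes. With vehicle, 14 of the 49 genes were higher (28.6%) and 16 lower (32.7%) in knockout than in control cells in the edgeR tests. The background was 30.7% of all genes higher and 33.3% lower. The median was -0.06 over the 49 genes and -0.01 over all genes, and that of the 49 moved to -0.023 without replicate 1 of vehicle-treated control cells, to -0.038 without replicate 2 of vehicle-treated knockout cells and to -0.013 with library totals. A change of at least 1.5-fold was called in 3 of them (6.12%), PRKDC, RAD54B and LIG1, against 26.3% of all genes. Both knockout libraries lay above both control libraries for 17 genes (background 39.5%) and below them for 22 (background 41.8%). No separate knockout lines are described, so the edit and other differences between the cell populations cannot be told apart.

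PRKDC had the largest difference, from 805 and 750.1 CPM in vehicle-treated control libraries to 346 and 346 CPM in knockout libraries. RAD54B (chr8:95384188-95487343), a relative of RAD54L in strand pairing, read 41.2 and 39.6 CPM in control and 22.6 and 22.2 CPM in knockout libraries, and LIG1 read 55.5 and 53.1 CPM in control and 36.3 and 34.5 CPM in knockout libraries. The knockout libraries lay far below the control libraries in each. On the log2 scale edgeR gave -1.17 (SE 0.0423, adjusted p = 6.58e-23) for PRKDC, -0.85 (SE 0.0808, adjusted p = 2.90e-11) for RAD54B and -0.62 (SE 0.0749, adjusted p = 7.57e-09) for LIG1.

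MSH6 read 259 and 265 CPM in control and 196 and 202 CPM in knockout libraries with vehicle. RAD50 read 108 and 99.6 CPM in control and 78.0 and 71.2 CPM in knockout libraries, and XRCC2, a recombinase paralog, read 44.0 and 41.5 CPM in control and 30.4 and 28.8 CPM in knockout libraries. The knockout libraries were the lower ones in each of these genes as well. On the log2 scale edgeR gave -0.39 (SE 0.0458, adjusted p = 3.13e-09) for MSH6, -0.48 (SE 0.0610, adjusted p = 2.18e-08) for RAD50 and -0.53 (SE 0.0758, adjusted p = 1.85e-07) for XRCC2.

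Among the recombination mediators 4 were higher, BARD1 (0.49), RAD52 (0.44), RAD51B (0.33) and XRCC3 (0.24), and 5 lower, with RAD51C (-0.42), RAD51D (-0.34) and PALB2 (-0.24) beside RAD54B and XRCC2. BRCA1 (-0.03), BRCA2 (-0.10) and RAD54L (0.05) did not pass. Of the complex that tethers broken ends, RAD50 and NBN (-0.33) were lower and the nuclease MRE11A (0.27) higher. EXO1 was higher as well (0.18). Over all genes 30.7% were higher and 33.3% lower. With the median of its chromosome arm removed, NBN stood at 0.031 and did not pass.

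In the checkpoint group 4 of 7 genes were higher in knockout cells, ATRIP (0.48), CHEK2 (0.25), ATM (0.20) and CLSPN (0.17), and TOPBP1 (-0.35) was lower. Over all genes 30.7% were higher and 33.3% lower. Of the Fanconi genes FANCM (0.37) and FANCG (0.19) were higher and FANCF (-0.31), FANCE (-0.29) and FANCI (-0.20) lower. In mismatch repair MSH3 was higher (0.29) and MSH6 lower. In break sealing XRCC5 was higher (0.25), and POLQ (-0.38) and XRCC6 (-0.14) were lower beside PRKDC and LIG1. PARP1 did not pass at -0.08 (adjusted p = 0.0868), and did with the replicate block (adjusted p = 0.0321).

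Of these 30 calls 17 passed without each library in turn. Without replicate 1 of vehicle-treated control cells the calls of CHEK2, FANCF, FANCG, PALB2, RAD51B, RAD51D, XRCC3 and XRCC6 were lost (edgeR adjusted p from 0.0672 to 0.208), and without replicate 2 those of ATM, CLSPN, EXO1 and FANCE (0.0668 to 0.171). Without replicate 1 of vehicle-treated knockout cells ATM, CHEK2, FANCE, FANCF, FANCM and RAD51D were lost (0.0695 to 0.104), and without replicate 2 CHEK2, FANCG, PALB2 and XRCC3 (0.0553 to 0.0991). In DESeq2 that of CHEK2 was lost (DESeq2 adjusted p = 0.0576).

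Differences between the cell populations also ran along chromosome arms. PRKDC, RAD54B and NBN lie on 8q, where the median log2 fold change of 306 tested genes was -0.36, and PALB2 lies on 16p, where the median of 288 genes was -0.66. With the median of its arm removed, PALB2 stood at 0.42 (edgeR adjusted p = 1.94e-05) in place of -0.24, and NBN at 0.031. CLSPN, on 1p with an arm median of 0.28, stood at -0.11. XRCC5, on 2q with an arm median of 0.33, stood at -0.082, and FANCI, on 15q with -0.26, stood at 0.059. XRCC3 stood at -0.060 in place of 0.24. Of the 30 calls 16 kept direction and call, 8 kept direction only and 6 changed direction. Of those 6, PALB2 alone passed in its new direction. Genes outside the 30 calls also passed. Higher were LIG4 (0.37), WRN (0.32), XRCC1 (0.30), BRCA2 (0.28), BLM (0.21), ATR (0.19) and BRCA1 (0.15). Lower were FANCD2 (-0.35), PARP1 (-0.24), RAD54L (-0.23) and RBBP8 (-0.15). Fibroblast and mesothelial markers summed to 1262 to 1320 CPM in vehicle-treated control and 237 to 241 CPM in knockout libraries, mostly COL1A1. DCN, a defining marker, was at 0 in both groups. Of the 6 tested, 3 were lower and 2 higher by edgeR. LUM was higher (4.95), at means of 0.0426 CPM in control and 1.48 CPM in knockout cells. Endothelial markers summed to 103 to 105 and then 32.9 CPM, mostly CDH5, and haematopoietic markers to 97.0 to 100.4 and then 63.7 to 64.4 CPM, mostly CD68. Of these lists 5 of 7 and 6 of 8 were under 1 CPM in every library. Against the sums, the endothelial TEK (2.97, from 0.0426 to 0.366 CPM) and the haematopoietic LYZ (2.67, from 0.341 to 2.18 CPM) were higher in knockout cells. Of the 8 ovarian and epithelial markers tested, 3 were higher and 3 lower in knockout cells by edgeR. Those of smallest p were KRT18 (-1.02), KRT8 (-1.87), KRT7 (0.50) and PAX8 (1.57). The part of these markers in the results was not tested. The S phase genes were lower in 20 and higher in 4 of 35 (median -0.21) and those of mitosis in 15 and 5 of 26 (median -0.17). Over all genes 33.3% were lower and 30.7% higher. The part of the S phase and mitosis genes was not tested.

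With LY500307 present, 11 of the 49 genes were higher and 16 lower in knockout than in control cells by edgeR, against a background of 32.6% of all genes higher and 33.6% lower. The median was 0.03 over the 49 genes and -0.0050 over all genes, and that of the 49 changed sign to -0.036 without replicate 1 of LY500307-treated knockout cells, stood at 0.020 without replicate 2 and at 0.066 with library totals. A change of at least 1.5-fold was called in 4, PRKDC, RAD54B, LIG1 and RAD52, against 27.8% of all genes. Both knockout libraries lay above both control libraries for 17 genes (background 40.1%) and below them for 19 (background 41.2%).

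PRKDC read 629.9 and 633 CPM in control and 295 and 297 CPM in knockout libraries under LY500307. RAD54B read 40.3 and 40.4 CPM in control and 24.0 and 20.9 CPM in knockout libraries, and LIG1 read 41.2 and 44.6 CPM in control and 23.4 and 27.0 CPM in knockout libraries. The knockout libraries were again the lower ones. The edgeR estimates on the log2 scale were -1.09 (SE 0.0424, adjusted p = 5.39e-22) for PRKDC, -0.85 (SE 0.0794, adjusted p = 2.08e-11) for RAD54B and -0.77 (SE 0.0777, adjusted p = 1.28e-10) for LIG1.

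XRCC5 read 959.7 and 931 CPM in control and 1201 and 1156 CPM in knockout libraries under LY500307, the knockout being higher (0.32, SE 0.0380, adjusted p = 5.23e-09 by edgeR). RAD50 read 122 and 121 CPM in control and 95.1 and 86.3 CPM in knockout libraries (-0.42, SE 0.0591, adjusted p = 1.38e-07 by edgeR). RAD51C, a paralog that assembles recombinase filaments, read 49.6 and 50.1 CPM in control and 33.9 and 37.1 CPM in knockout libraries (-0.49, SE 0.0701, adjusted p = 1.99e-07 by edgeR). The annealing factor RAD52, chosen after its values were seen, read 10.4 and 11.7 CPM in control and 18.9 and 17.6 CPM in knockout libraries, and 13.9 and 11.7 CPM, then 17.1 and 17.6 CPM with vehicle. It was higher in every knockout library than in any control library (log2 fold change 0.72, SE 0.104, adjusted p = 2.37e-07 by edgeR under LY500307).

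Further genes higher in knockout cells under LY500307 were FANCM (0.46), BARD1 (0.43), WRN (0.39), ATRIP (0.35), MRE11A (0.25), LIG4 (0.24), XRCC3 (0.24), EXO1 (0.22) and CLSPN (0.16). Further genes lower were XRCC2 (-0.35), FANCL (-0.29), RAD51D (-0.28), RAD54L (-0.28), FANCA (-0.25), TOPBP1 (-0.23), MSH6 (-0.22), NBN (-0.21), FANCI (-0.21), DNA2 (-0.20) and BRIP1 (-0.15). RAD54L, which did not pass with vehicle, was among them, and its call was lost without replicate 1 of LY500307-treated knockout cells (edgeR adjusted p = 0.0903). In that fit BRIP1, CLSPN, DNA2, LIG4 and RAD51D were lost too (0.0597 to 0.218 over all 6). Without replicate 2 of that group FANCL and LIG4 were lost (0.0581 to 0.0647), without replicate 1 of LY500307-treated control cells BRIP1 and RAD51D (0.142 to 0.297), and without replicate 2 CLSPN, DNA2, LIG4 and RAD51D (0.0603 to 0.147). In DESeq2 BRIP1 and RAD51D were lost (DESeq2 adjusted p of 0.0701 and 0.0920), and BRIP1 also when only the groups compared were fitted (edgeR adjusted p = 0.0519). With the replicate block ATR (0.10, adjusted p = 0.0390), FANCD2 (-0.12, adjusted p = 0.0398) and XRCC1 (-0.16, adjusted p = 0.0351) passed as well. With arm medians removed, 14 of the 27 calls kept direction and call and 8 kept direction only. BRIP1 (0.040), CLSPN (-0.15), FANCI (0.046), NBN (0.097) and XRCC3 (-0.076) changed direction, and of these CLSPN alone passed. Genes outside the 27 calls passed too. Higher were PALB2 (0.74), BRCA2 (0.45), BLM (0.37), MSH3 (0.30), ATR (0.24) and BRCA1 (0.18). Lower were FANCD2 (-0.44), FANCG (-0.17) and PARP1 (-0.15).

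The knockout contrasts with vehicle and with LY500307 rest on separate libraries. Both compare knockout with control cells of the same labels, with no separate knockout lines described, so differences other than the edit can enter both. Of the 16 genes lower with vehicle and the 16 lower with LY500307, 11 were in both lists, and of the 14 and 11 that were higher, 9 were in both, with 0 in opposite directions. Over all genes 3853 were lower in both, of 4491 and 4533, and 3578 higher in both, of 4146 and 4401. The sign was the same in 38 of 49 genes (77.6%, against 87.6% of all genes), with Pearson's r of 0.88 and Spearman's rho of 0.82 across the 49 genes and 0.93 and 0.89 across all genes.

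**Figure D4:**
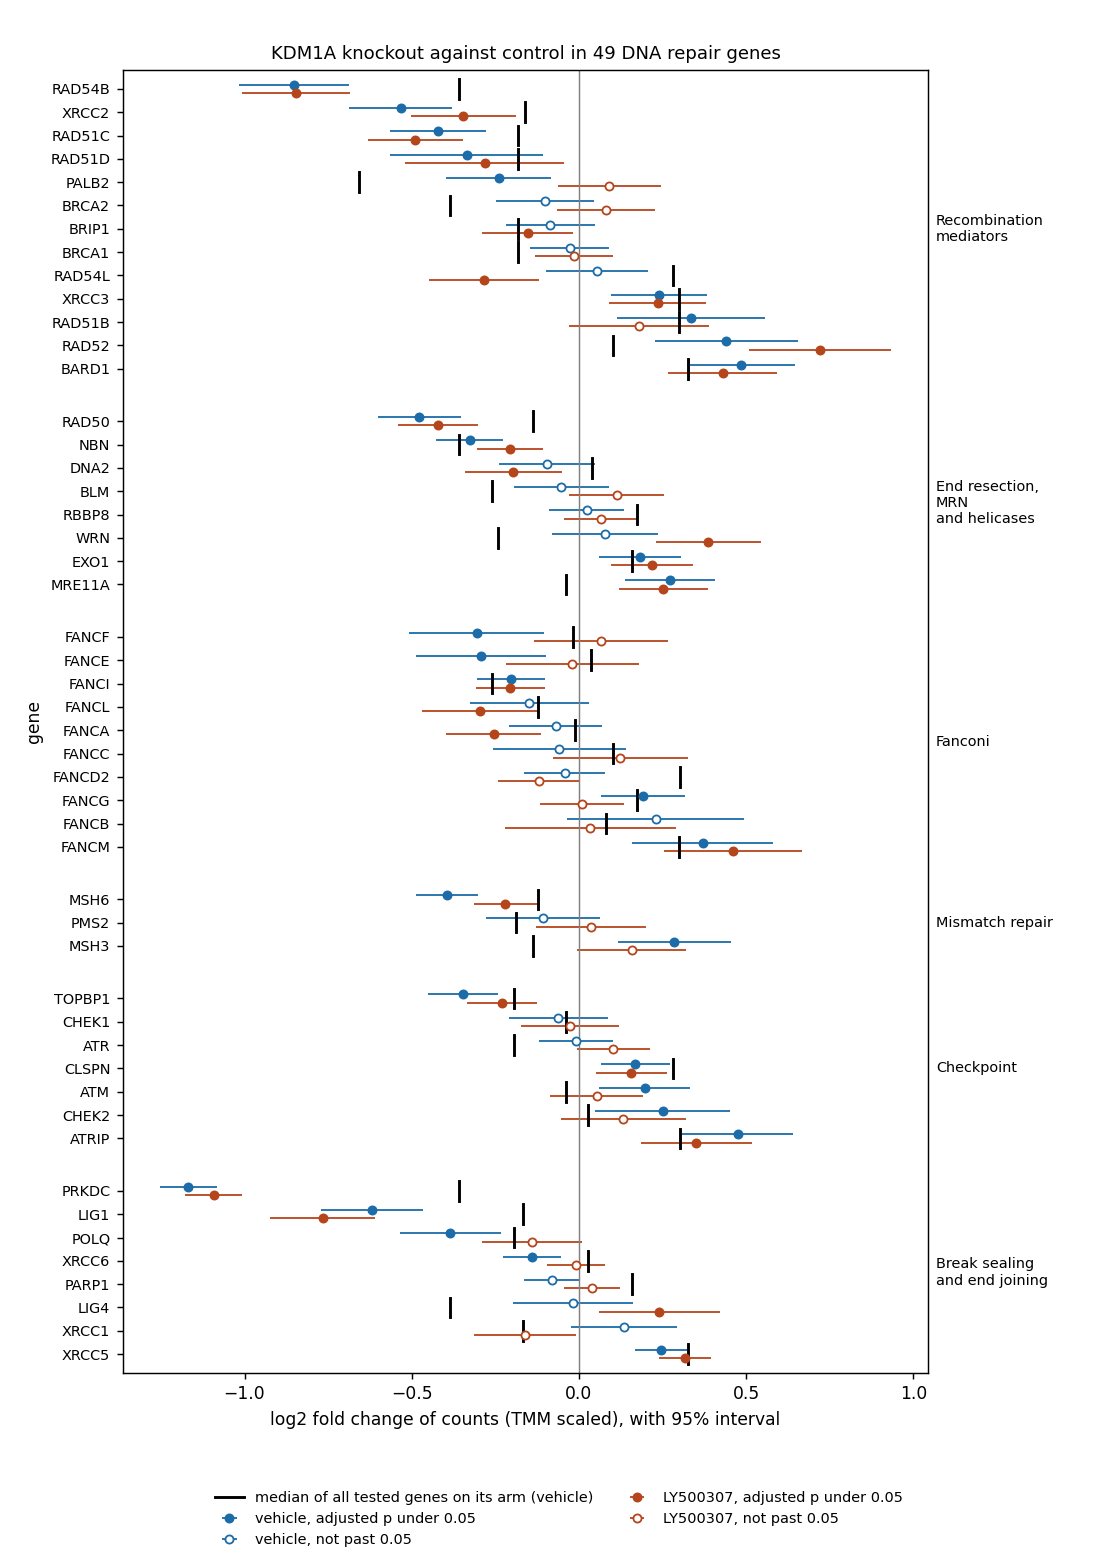
Log2 fold change (x axis) of knockout against control cells for each of the 49 genes by role, with vehicle and with LY500307 (colour), with 95% intervals as bars and filled points where the edgeR adjusted p was under 0.05, and the median of the chromosome arm of each gene with vehicle as a tick. PRKDC lies lowest at -1.17 and -1.09, RAD52 lies highest with LY500307 at 0.72, and PALB2 lies right of its arm median of -0.66.

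A further 75 genes of the same pathways were listed, of which 74 were tested. With LY500307, 21 were lower and 7 higher in control cells (median log2 fold change -0.07), beside 14.0% and 12.3% of all genes. In knockout cells 15 were lower and 5 higher (median -0.06), beside 11.3% and 9.16% of all genes. By knockout, 31 were lower and 17 higher with vehicle (median -0.07), beside 33.3% and 30.7% of all genes. Under LY500307 the knockout had 27 lower and 19 higher (median 0.01), beside 33.6% and 32.6% of all genes. Of smallest p in control cells under LY500307 were the phosphatase CDC25A (-0.54), the recombination factor PSMC3IP (-0.49), the histone variant H2AFX that marks breaks (-0.29) and USP1 (-0.24), which removes ubiquitin from FANCD2. In vehicle-treated knockout cells they were the Fanconi partner STRA13 (-1.19), RMI2 of the BLM complex (-1.41), H2AFX (-0.76) and BRE (0.62), a subunit of a BRCA1 complex. In the interaction BRE was the one of the 74 to pass (-0.31, edgeR adjusted p = 0.0216).

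Among the 49 genes, 17 share exonic bases with a neighbouring gene in GENCODE, 14 of them on the opposite strand, which matters where counting ignored strand. ATRIP with TREX1 (1448 bases), CHEK1 with STT3A (53 bases) and RBBP8 with MIR4741 (90 bases) overlap on the same strand, so their counts are uncertain with or without strand. Whether the counting used strand is not stated in the labels. The longest overlaps were those of XRCC3 with KLC1 (5756 bases), MSH6 with FBXO11 (4022 bases) and FANCA with ZNF276 (2409 bases), all on opposite strands. FANCI with POLG (458 bases) and RAD54L with LRRC41 (813 bases) also lie on opposite strands. Without strand, reads within the shared bases cannot be assigned to 1 of the 2 genes, while reads elsewhere in a gene can. The overlaps count exons of every annotated transcript, so that of XRCC3 exceeds its canonical transcript of 2567 bases.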

How the data were processed

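The authors deposited whole-number read counts per gene symbol for each of 8 libraries, and the submitters' processing notes name bcl2fastq, TopHat2 2.0.8b, HTSeq and the build hg19. Libraries were single-end with 50 bases, per the labels' protocols, which name a kit for stranded mRNA and a guide for total RNA. The series text says that reads of the duplicates were combined, yet each library has a file of its own, and paired files differed beyond the noise of counting (chi-square of 3.05 to 4.30 per degree of freedom), so all 8 were kept. Summary entries of the counter were left out of library sizes; reads in no gene came to 10.7% to 12.8% and ambiguous reads to 0.811% to 0.861% of uniquely aligned reads.

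The analysis used R 4.3.3 with edgeR 4.0.16 and limma 3.58.1. The files list 23228 genes, 5520 of them without any count, and 13498 were left after filterByExpr. With TMM scaling, 1 quasi-likelihood fit of 4 group means (4 residual degrees of freedom, prior 30.1, coefficient of variation 3.95%) gave 5 two-sided comparisons, adjusted by Benjamini-Hochberg over all genes at 0.05. DESeq2 1.42.0, other scalings and filters, a chromosome arm correction, a replicate block and each library left out were tried as alternatives. The procedure was also run on counts simulated from the fit, with 50 genes changed at each fold size in LY500307-treated control cells. It recovered 70% at 1.25-fold, 80% at 1.5-fold and 100% at 2-fold and 3-fold, with 8 false calls among 183. Far fewer genes were changed there than were called in these data, so these rates need not hold here. Differences of replicate 1 and 2 correlated at 0.11 to 0.27 between all pairs of groups over 9381 genes. Correlations this weak do not establish that libraries of the same number form pairs, and no label says what a number shares. The main fit therefore left the replicate number out, and the block was an alternative. Positions came from GENCODE 44 on GRCh37 and promoters from RefSeq on GRCh38.p14.

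The 49 genes, the lists and the tests were chosen with earlier results of these data known. Library values are given for KDM1A, for the highest and lowest gene per length, and for the 6 genes of smallest p that passed in each comparison (none passed in the interaction), with exceptions named as such; other genes are given by log2 fold change within their role. From each further list at most 4 genes by smallest p are named.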

Additional observations from a re-analysis of the deposited data

How the results depend on the processing

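With the median of the chromosome arm removed, 6 calls of knockout against control with vehicle changed direction: CLSPN (-0.11), FANCI (0.059), NBN (0.031), PALB2 (0.42), XRCC3 (-0.060) and XRCC5 (-0.082). With LY500307 these were BRIP1 (0.040), CLSPN (-0.15), FANCI (0.046), NBN (0.097) and XRCC3 (-0.076). Of the reversed calls only PALB2 with vehicle and CLSPN with LY500307 passed, and genes without a call before passed as well. The alternative itself shifts each gene by its arm's median. With library totals, 17 of the 49 genes were lower and 5 higher with LY500307 in control cells, and 5 were higher in knockout cells. With the replicate block 3 were higher in knockout cells with LY500307, and the interaction held 2 higher and 1 lower of the 49 and 643 of all genes; it ended no call. Without a filter on low counts the interaction held 350 of all genes. The cause of these shifts was not tested.

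With each library left out in turn, LY500307 in control cells gave 1 to 4 genes higher, 17 to 28 lower and 2160 to 3810 of all genes, and in knockout cells 0 to 1 higher, 13 to 19 lower and 1422 to 2736 of all genes, the fewest without replicate 2 of vehicle-treated knockout cells. Knockout gave 10 to 14 higher, 12 to 16 lower and 7596 to 8813 of all genes with vehicle, and 9 to 12 higher, 12 to 16 lower and 7915 to 9015 with LY500307. The interaction gave 0 higher, 0 to 1 lower and 95 to 262 of all genes. A fit without 1 library leaves a group with 1 sample, assumed to vary like the others. No alternative other than the arm correction changed the direction of a call. DESeq2 ended 10 calls of the 49 genes over the comparisons. Depth and 2 libraries a group limit what can pass, and a difference that did not pass is not shown to be absent.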
